A study of Mus musculus with 4 samples.

Results

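The 10 genes described here are receptors, a ligand, feedback inhibitors and a target of fibroblast growth factor (FGF) and epidermal growth factor (EGF) signalling: Fgfr1, Fgfr2, Fgfr3, Egfr, Fgf15, Spry1, Spry2, Spry4, Spred1 and Etv5. Their probe sets, short groups of oligonucleotides that together read out 1 transcript, were taken where the platform annotation gave exactly 1 gene symbol equal to one of these names. This gave 34 probe sets of 45137 on the Affymetrix MOE430A and MOE430B designs together, 22 on MOE430A and 12 on MOE430B, and all 10 genes had at least 1. None of the probe sets annotated with several symbols included one of them.

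One RNA came from neurospheres labelled as E2F4 knockout and was set against an RNA of wild-type neurospheres. Both came from the ventral telencephalon, the lower forebrain, of mouse embryos at E12.5, and neurospheres are floating cultures of neural stem and progenitor cells. Each of the 2 RNAs was hybridised to 1 array of each design, which makes 4 arrays. The strain, the allele and the culture medium are not given in the sources used here, nor is the number of embryos behind each RNA. Since each genotype was 1 RNA sample, no value carries a replicate error or a test across samples, so the ratios compare these RNAs rather than the genotypes. In whole cultures, fewer cells of a type and less RNA per cell cannot be told apart.

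FGF ligands bind receptor tyrosine kinases on the cell surface, with heparan sulphate as a cofactor, and EGF family ligands bind EGFR and its relatives. Both kinds of receptor pass the signal through RAS to the ERK kinases. The ERK pathway then induces ETS factors such as Etv5 and its own inhibitors of the Sprouty family, which are widely used as readouts of the pathway, and the related Spred proteins inhibit it as well. In the embryonic forebrain FGF signalling patterns the tissue and keeps progenitors dividing, and neurosphere cultures are commonly grown with FGF2 and EGF.

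The deposited MAS5 signal, a summary of a probe set's brightness in arbitrary units, was compared only within a probe set. The median signal of a design (735.5 on MOE430A and 941.6 on MOE430B) served as the floor, and measured means that the knockout and the wild-type array both reached it. Log2 ratios are of knockout over wild type, centred on the median of all probe sets of the design, and a gene's value is the mean over its measured probe sets. The E2f4 probe set itself read 1535 in the knockout sample and 1812 in the wild type, a log2 ratio of -0.25. The sources used here do not say whether the deletion covers that probe set, so it does not check the label. The samples stood apart in Xist, with a signal of 1178 in the knockout sample and 8980 in the wild type on its measured probe set, a value chosen after it was seen. Its other probe sets read 47.1 and 41.8 in the knockout sample and 1817 and 225 in the wild type. Of these signals only that of 1817 reached the floor. All 6 stem and progenitor markers looked up, Sox2, Nes, Pax6, Vim, Hes5 and Fabp7, were measured in both samples, as were 5 of 5 neuron markers, 3 of 5 erythroid, 2 of 5 astrocyte and 2 of 6 oligodendrocyte lineage ones, and 1 of 5 each for endothelial, microglial and mesenchymal cells. In the knockout sample all 3 measured erythroid markers were lower, with a median log2 ratio of -0.52 and the embryonic globin Hbb-bh1 lowest at -0.89. The brightest probe set of another embryonic globin, Hbb-y, read 69938.7 in the knockout sample and 89827.9 in the wild type. The brightest stem and progenitor probe set, of Vim, read 49858.5 in the knockout sample and 48180.3 in the wild type. Of the neuron markers 4 of 5 were lower, with a median of -0.16. The stem and progenitor markers had a median of 0.05, with 4 of 6 higher and Hes5, a Notch target, at -0.87. The measured astrocyte markers went either way, with Slc1a3 at 0.20 and Aqp4 at -0.30. Endothelial Kdr was at 0.37, microglial Csf1r at -0.26 and mesenchymal Col1a2 at 0.09. A probe set of endothelial Flt1, chosen after its value was seen, reached the floor on the knockout array only, at least 2.36-fold higher. Both measured oligodendrocyte lineage markers were lower, Sox10 at -0.67 on 1 of 3 probe sets and Mbp at -0.31 on 1 of 8. Olig2 reached the floor on the wild-type array only, whereas a Pdgfra and another Mbp probe set did so on the knockout array only. Gapdh, read from its 3' and its 5' end to judge RNA integrity, had a 3' over 5' ratio of 0.898 in the knockout sample and 0.862 in the wild type on MOE430A, against 0.799 in the knockout sample and 0.948 in the wild type on MOE430B. The part of these differences in the results was not tested.

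Gene values of the members lay between -0.18 and 0.57. Of the 10 genes, 6 were higher and 4 lower in the knockout sample, with a median log2 ratio of 0.06. Over all 10171 measured genes 48.6% were higher and 51.4% lower, with a median of -0.01, so the direction counts of the members lay near that share. None reached 1.5-fold on the gene value in either direction, where 7.3% of all measured genes did (3.4% higher and 3.89% lower). With 10 genes, a count of 0 is close to that share. At 2-fold the count was 0 as well, with a background of 1.01% of measured genes (0.531% higher and 0.482% lower). The median size of the log2 ratio, whatever its sign, was 0.10 over the 10 genes and 0.18 over all measured genes. These medians are not like for like. Of the 19 measured member probe sets 14 were on MOE430A, where 3.97% of genes passed 1.5-fold alone, against 13.1% on MOE430B alone. Values of 6 of the 10 genes were means over more than 1 measured probe set, as were 3956 of all 10171. The part of either in the medians was not tested. Fgf15, Spry4 and Spred1 lay on the higher side at 0.57, 0.42 and 0.40, and Egfr was lowest at -0.18.

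Of the 34 probe sets, 19 were measured in both samples, 4 reached the floor on the knockout array only, 0 on the wild-type array only and 11 on neither. Over all probe sets of both designs, 5.88% reached it on the knockout array only and 5.82% on the wild-type array only. The 4 probe sets belonged to Fgfr2, Spry2, Spred1 and Etv5. Among the 19 measured ones, 10 were higher and 9 lower in the knockout sample, and 1 was past 1.5-fold, a Spred1 probe set on MOE430B. Of all measured probe sets, 8% on MOE430B and 2.41% on MOE430A were past 1.5-fold higher, and 8% and 2.83% were past it on the lower side.

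**Figure D1:**
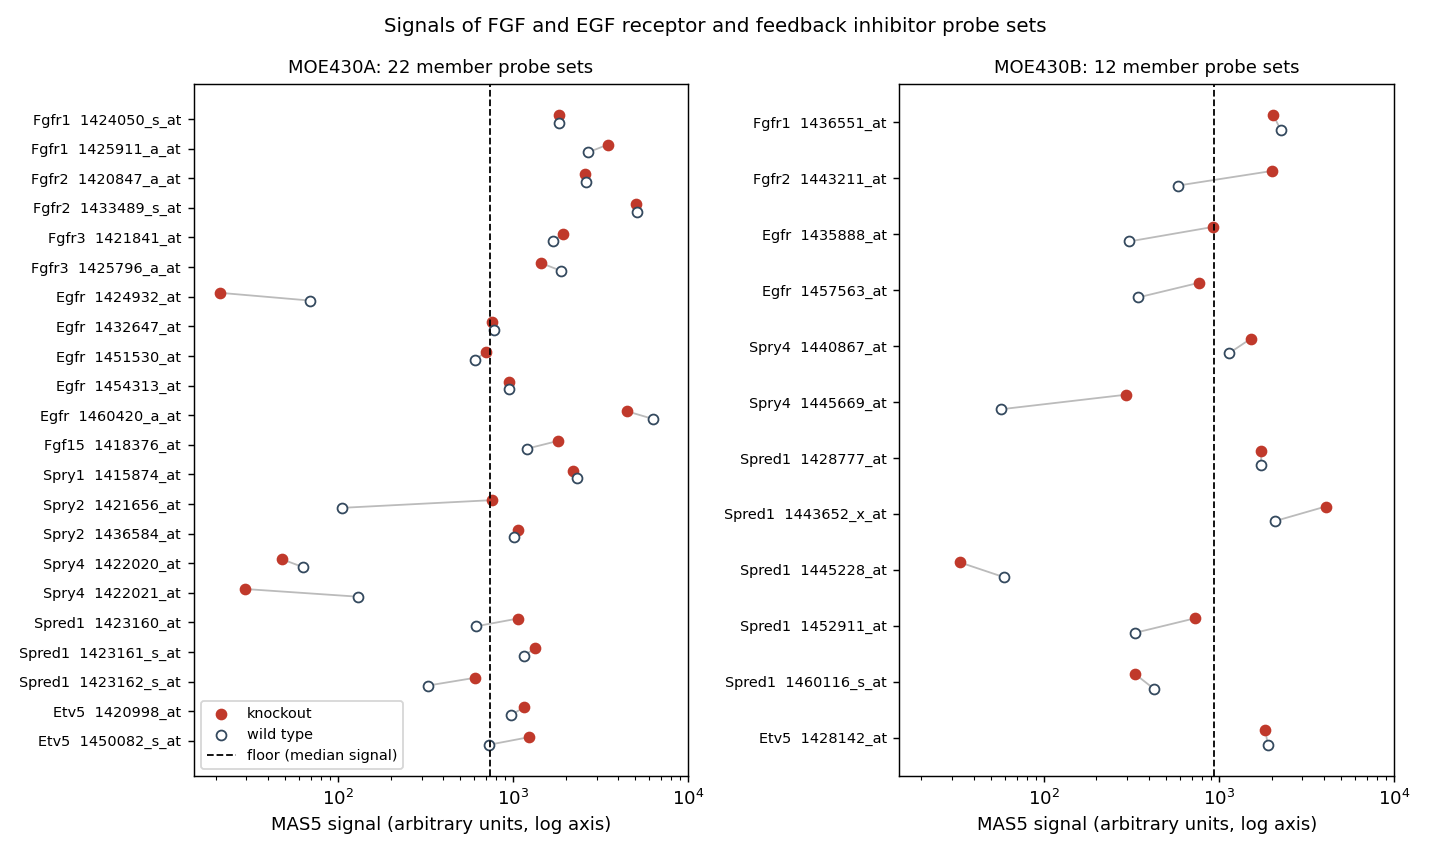
MAS5 signal of every member probe set on a log axis, with the knockout array as a filled point, the wild-type array as an open point and the floor as a dashed line; each point is 1 array. Pairs right of the floor on both arrays mostly lie close together, and the 4 pairs that straddle the floor all have the knockout point on the right.

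The FGF receptors are tyrosine kinases whose splice forms differ in the FGFs they bind. Fgfr1, an FGF receptor that forebrain growth depends on, had 3 probe sets, all measured. The first read 3464 in the knockout sample and 2672 in the wild type on MOE430A, a log2 ratio of 0.37. Another on MOE430A read 1841 in the knockout sample and 1840 in the wild type, so that it showed no difference. On MOE430B the signals were 2045 in the knockout sample and 2252 in the wild type, a log2 ratio of -0.14. The mean of 0.07 therefore joined probe sets on both sides of 0.

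Fgfr2, which is expressed with Fgfr1 in ventricular zone progenitors, had a pair of bright probe sets that agreed closely. They read 2582 and 5008 in the knockout sample, against 2619 and 5087 in the wild type, and both log2 ratios were -0.03. A further Fgfr2 probe set on MOE430B read 1998 in the knockout sample and 584 in the wild type, below the floor. The knockout sample was higher by at least 2.12-fold, the largest bound among the 10 genes, and the other Fgfr2 probe sets did not share this difference. With the floor lowered to the 30th percentile of signals this probe set entered the mean, which became 0.57 in place of -0.03.

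Fgfr3, the FGF receptor best known for restraining bone growth and expressed in progenitors and glia of the forebrain, had 2 measured probe sets that disagreed in sign. One read 1921 in the knockout sample and 1693 in the wild type, a log2 ratio of 0.17. The other read 1451 in the knockout sample and 1885 in the wild type, a log2 ratio of -0.39. About 16.8% of measured probe sets of MOE430A lay at least as far from 0 as the second. The mean of the pair was -0.11.

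Egfr, the receptor for EGF and transforming growth factor alpha, had 7 probe sets, of which 3 were measured. The brightest read 4477 in the knockout sample and 6305 in the wild type, which was 0.710 of the wild-type signal and a log2 ratio of -0.50. A share of 8.65% of measured probe sets of MOE430A lay at least as far from 0. The other measured probe sets lay just above the floor and were level between the samples, with 759 and 953 in the knockout sample and 773 and 946 in the wild type. Their log2 ratios were -0.04 and 0.003, and the gene's mean was -0.18.

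The remaining Egfr probe sets were below the floor in both samples, so no fold is given for them. On MOE430B they read 924 and 766 in the knockout sample and 306 and 346 in the wild type, both higher in the knockout sample and so opposite in direction to the bright probe set. On MOE430A they read 696 and 21.2 in the knockout sample and 610 and 68.8 in the wild type. The difference in the brightest Egfr probe set was thus not shared by any other probe set above the floor.

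Taken over the 4 receptors, 1 was higher and 3 were lower in the knockout sample, where 51.4% of all measured genes were lower. The median log2 ratio of the receptors was -0.07. All 4 lay within 0.18 of 0 on the gene value.

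Fgf15, a secreted FGF of the embryonic forebrain whose human counterpart is FGF19, had 1 probe set, on MOE430A. Its signal was 1806 in the knockout sample and 1206 in the wild type, a log2 ratio of 0.57 or 1.49-fold. This was the highest gene value of the 10. Of the measured probe sets of MOE430A, 5.55% lay at least as far from 0, and of all measured genes 7.74% did. No second probe set was there to compare it with, so the value rests on 1 probe set on 1 pair of arrays. After quantile normalization it was 0.59, just past 1.5-fold.

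The Sprouty genes encode inhibitors that the pathway induces and that act on the steps between receptor and ERK. Spry1 had 1 probe set, with 2188 in the knockout sample and 2324 in the wild type, a log2 ratio of -0.10. Spry2 had 1 measured probe set, which read 1062 in the knockout sample and 1015 in the wild type, a log2 ratio of 0.06. Both genes were thus nearly level between the samples on the probe sets above the floor.

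The other Spry2 probe set read 759 in the knockout sample, just above the floor, and 106 in the wild type. Since the wild-type signal was below the floor, the difference is given as at least 1.03-fold, and the ratio of the raw signals is not used. Without any floor this probe set took the gene's mean to 1.45. The Spry2 result thus turned on whether low signals were read as given.

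Spry4 had 4 probe sets and only 1 above the floor, on MOE430B, with 1518 in the knockout sample and 1141 in the wild type. Its log2 ratio was 0.42, or 1.33-fold, and 30.2% of measured probe sets of MOE430B lay at least as far from 0. The 3 others read 48.1, 29.4 and 294 in the knockout sample and 63.1, 130 and 57.0 in the wild type, all below the floor and not in one direction. With these read as given, the gene's mean was 0.06 and not 0.42, and it was 0.08 with the floor as a pseudocount.

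Spred1, which brings the RAS inhibitor neurofibromin to the membrane, had 8 probe sets, the most of the 10 genes. One on MOE430B read 4063 in the knockout sample and 2089 in the wild type, a log2 ratio of 0.96 or 1.95-fold, and 3.42% of measured probe sets of that design lay at least as far from 0. Its name ends in _x_at, the Affymetrix mark for probes that can also match other transcripts. A different Spred1 probe set on MOE430B read 1751 in the knockout sample and 1738 in the wild type, a log2 ratio of 0.01. The third measured one, on MOE430A, read 1336 in the knockout sample and 1148 in the wild type, a log2 ratio of 0.21. The mean of 0.40 therefore rested largely on the _x_at probe set, and it was 0.01 once probe sets with the endings _x_at, _s_at and _a_at were left out.

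One more Spred1 probe set reached the floor on the knockout array only, with 1061 in the knockout sample and 614 in the wild type, which is at least 1.44-fold higher. The 4 below the floor in both samples went either way. They read 604, 726, 33.3 and 334 in the knockout sample, against 327, 330, 58.9 and 426 in the wild type. Within each design the Spred1 mean was 0.21 on MOE430A and 0.49 on MOE430B.

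Across the 4 inhibitors, 3 were higher and 1 lower, with a median log2 ratio of 0.23, where 48.6% of all measured genes were higher.

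Etv5, an ETS transcription factor that FGF signalling induces, had 3 probe sets. On MOE430A one read 1152 in the knockout sample and 971 in the wild type, a log2 ratio of 0.24. On MOE430B the signals were 1844 in the knockout sample and 1901 in the wild type, a log2 ratio of -0.04. The mean of these was 0.10. The remaining probe set read 1241 in the knockout sample and 728 in the wild type, which was just under the floor, a bound of at least 1.69-fold. With the floor at the 30th percentile it entered the mean, which was then 0.32.

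**Figure D2:**
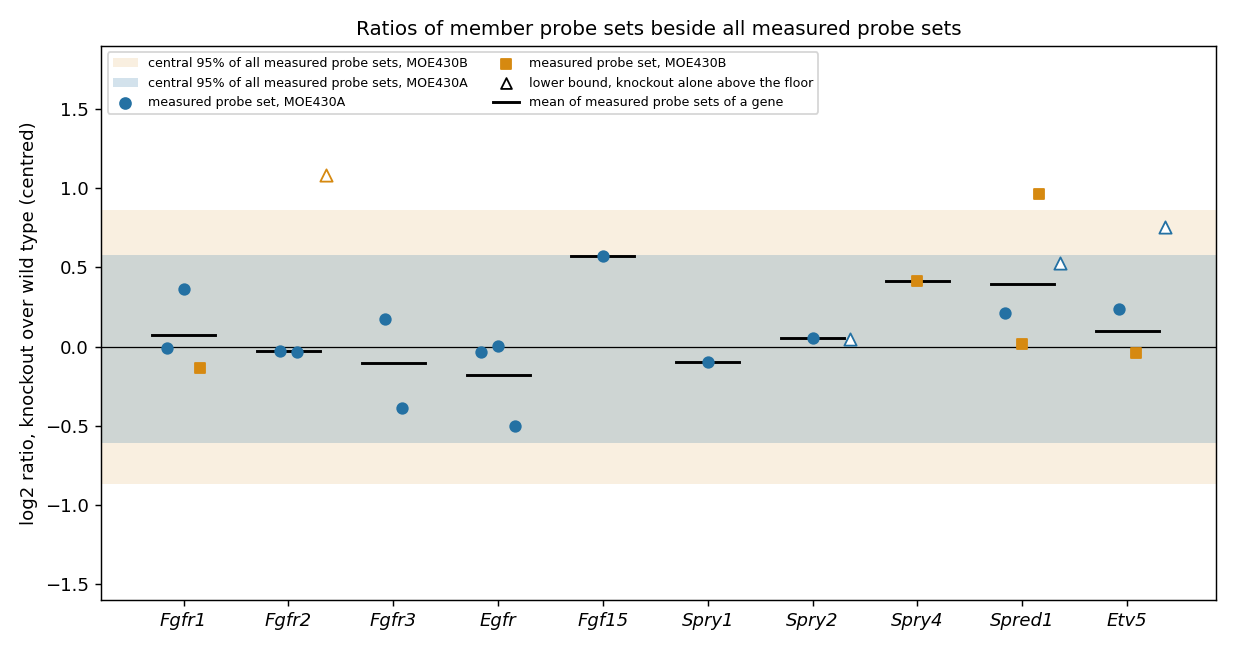
Log2 ratio of knockout over wild type for each measured member probe set (points), the mean per gene (bars) and the uncentred lower bounds of probe sets that reached the floor on the knockout array only (triangles), over bands that hold the central 95% of all measured probe sets of each design. The single point outside its design's band is the Spred1 _x_at probe set at 0.96, and the Fgf15 point at 0.57 lies at the edge of the MOE430A band, whose upper limit is 0.58.

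Probe sets of a gene often disagreed. Of the 6 genes with more than 1 measured probe set, 4 (Fgfr1, Fgfr3, Egfr and Etv5) had probe sets on both sides of 0. Among all 3956 genes with more than 1 measured probe set the share was 57.9%. The range between probe sets of a gene ran over the 6 genes from 0.002 for Fgfr2 to 0.95 for Spred1, with a median of 0.50, beside 0.37 over all such genes. Fgfr1, Spred1 and Etv5 were measured on both designs. Fgfr1 stood at 0.18 on MOE430A and -0.14 on MOE430B, and Etv5 at 0.24 and -0.04, so that only Spred1 kept its sign across designs. Arrays of different designs shared the RNA, so agreement between designs would speak to the measurement and not to the genotype.

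The rest of the pathway was read from 9 lists of 119 further genes, of which 60 were measured. In the knockout sample 28 of these were higher and 32 lower, with a median log2 ratio of -0.01, 1 was past 1.5-fold on the higher side and 2 on the lower. Beside the background of 3.4% and 3.89% over all measured genes these shares were no larger. Each of the 3 genes past 1.5-fold rested on 1 measured probe set on MOE430B. On that design 8% of measured probe sets passed 1.5-fold each way. Fgfr4, a further FGF receptor, was at 0.10 on 1 of its 5 probe sets. Flrt2, a membrane protein that can bind FGF receptors, was the lowest of the receptor and adaptor list at -0.56 over 3 probe sets, a gene chosen after its value was seen. The 5 measured genes of that list had a median of 0.10, with 4 higher and 1 lower.

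Of 17 other secreted FGF genes 3 were measured, with a median of -0.17, and Fgf2, the ligand most used in neurosphere culture, was below the floor in both samples, at 324 in the knockout sample and 161 in the wild type. Fgf3 had a bound of at least 2.71-fold lower on a single _x_at probe set of MOE430B, with 492 in the knockout sample and 2556 in the wild type. Its other probe sets were below the floor in both, so this bound too rested on 1 probe set. Of the 4 FGF homologous factors that stay inside the cell, 1 was measured, Fgf13 at -0.10 from probe sets at -0.71 and 0.52, a gene chosen after its value was seen. Among EGF family ligands 4 of 11 were measured, with a median of -0.13, and Egf was below the floor in both samples at 548 in the knockout sample and 521 in the wild type. Nrg2, a neuregulin that binds the ERBB3 and ERBB4 receptors, was lowest at -0.86. It read 1418 in the knockout sample and 2588 in the wild type on 1 of 3 probe sets, on MOE430B.

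No other EGF family receptor was measured in both samples. Erbb2, the partner receptor without a ligand of its own, reached the floor on the wild-type array only, with 487 in the knockout sample and 946 in the wild type, a bound of at least 1.29-fold lower. Erbb3 read 418 and 70.8 in the knockout sample against 352 and 69.0 in the wild type, and Erbb4 read 22.0 in the knockout sample against 96.4 in the wild type, all below the floor. Egfr was thus the 1 receptor of its family with a measured ratio.

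Heparan sulphate enzymes and core proteins, which shape the binding of FGFs to their receptors, had a median of 0.02, with 8 of 15 measured genes higher and 7 lower. The relay from receptor to ERK had a median of 0.04, with 7 of 13 higher and 6 lower. In neither list did a gene reach 1.5-fold.

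Among other feedback inhibitors 6 of 14 measured genes were higher and 8 lower, with a median of -0.02. Spred3, a relative of Spred1, was the lowest of all these genes at 2.01-fold lower. It read 1618 in the knockout sample and 3254 in the wild type on its only probe set, on MOE430B. Spred2, the remaining family member, was at -0.12 over 2 measured probe sets. The Spred genes therefore lay on both sides of 0, with Spred1 at 0.40 on the higher side. Sh2b3, an adaptor that restrains cytokine receptor signalling, was at 0.69 on MOE430B, with 3351 in the knockout sample and 2079 in the wild type, while its probe set on MOE430A was below the floor in both samples. Il17rd, a membrane inhibitor of FGF signalling also called Sef, was at -0.23. Dusp6, an ERK phosphatase induced by FGF, lay just under the floor in both samples, at 693 in the knockout sample and 618 in the wild type.

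Other targets and ETS factors had 5 of 17 genes measured, with 1 higher and 4 lower and a median of -0.07. Etv4, a close relative of Etv5, was at -0.22 on MOE430B, with 1080 in the knockout sample and 1259 in the wild type. On that design Etv5 stood at -0.04.

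**Figure D3:**
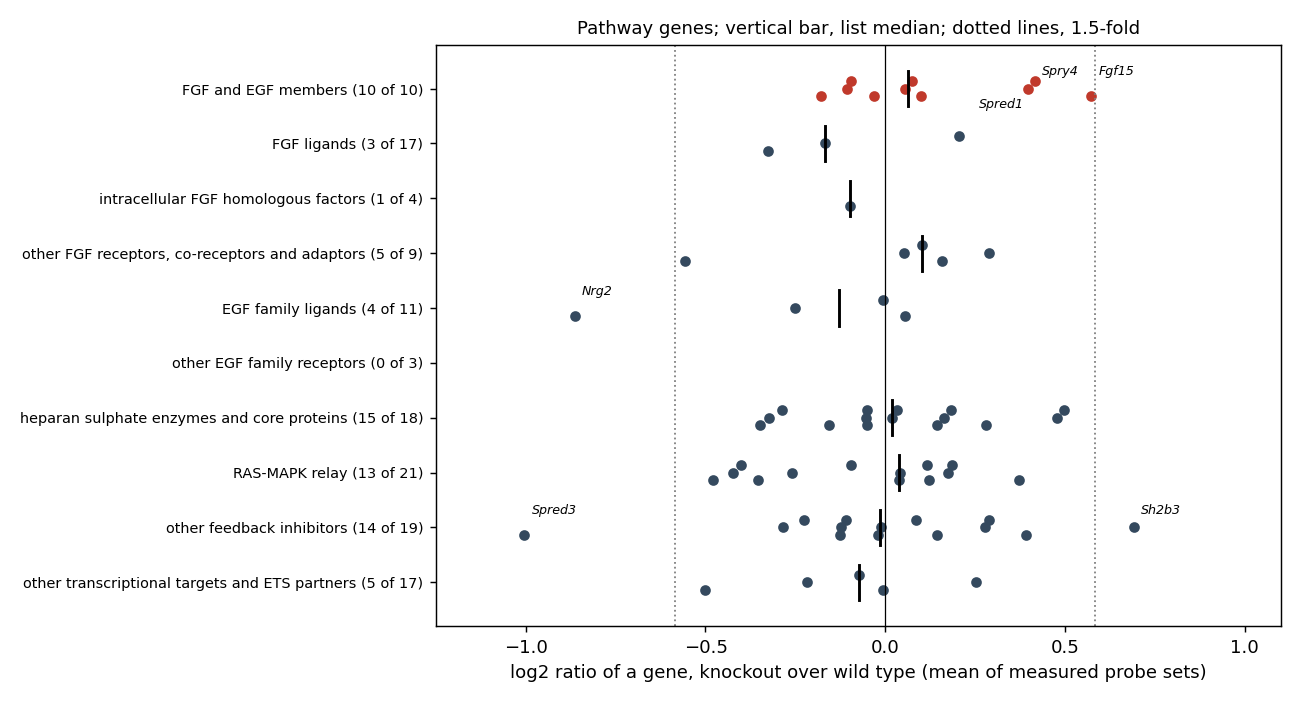
Gene values (log2 ratio of knockout over wild type) of the 10 members in red and of the measured genes of 9 pathway lists in dark grey, with list medians as vertical bars, 1.5-fold marked by dotted lines, and measured over listed genes in brackets. The members and list medians lie near 0, and Spred3, Nrg2 and Sh2b3 are the genes past 1.5-fold.

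The bases before the transcription start were read for 7 of the 10 genes from RefSeq promoters (GRCm38.p6), since E2F4 acts through E2F sites in promoters. The E2F cores searched on both strands were TTGGCGC or, in its other forms, TTCCCGC or likewise TTCGCGC or else TTGCCGC, and the ETS core was CCGGAAG. None of the searched letter strings overlapped another in these windows. Of 9 windows of 250 bases, 2 held an E2F core and 1 an ETS core, beside 7.89% and 6.91% of all 32851 windows of that length. The windows of Spry2 and Egfr are printed because they held a core, 5′ to 3′ along the gene, with the matched core in capitals. In Spry2 it is an E2F core, 73 to 67 bases before the start. In Egfr it is an ETS core on the opposite strand, 120 to 114 bases before the start.
Spry2 (chr14:105896820-105897069, minus strand): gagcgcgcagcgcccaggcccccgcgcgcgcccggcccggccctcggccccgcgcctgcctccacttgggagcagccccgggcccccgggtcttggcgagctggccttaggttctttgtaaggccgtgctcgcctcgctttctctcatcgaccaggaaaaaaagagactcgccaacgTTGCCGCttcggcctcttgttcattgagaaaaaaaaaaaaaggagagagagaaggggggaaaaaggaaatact
Egfr (chr11:16751953-16752202, plus strand): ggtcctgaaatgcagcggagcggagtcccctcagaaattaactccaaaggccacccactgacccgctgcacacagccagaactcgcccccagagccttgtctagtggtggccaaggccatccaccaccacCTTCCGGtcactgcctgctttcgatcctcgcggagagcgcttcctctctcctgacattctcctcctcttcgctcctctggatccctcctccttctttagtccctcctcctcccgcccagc

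The remaining window with E2F cores belonged to the downstream start of Fgfr3, where TTCCCGC lay 228 to 222 bases and TTGCCGC, on the opposite strand, 178 to 172 bases before the start. Windows of Fgfr2, Spry1, Spred1, Etv5 and the upstream start of Fgfr3 held none of these strings, which says nothing about binding. The gene values of Spry2 and Fgfr3, with an E2F core, were 0.06 and -0.11. Those of Egfr, Fgfr2, Spry1, Spred1 and Etv5, without one, ran from -0.18 to 0.40. The GC content of the 9 windows ran from 44.0% for Fgfr2 to 72.8% for the downstream start of Fgfr3, with a median of 62.4%, beside 52.4% over all windows.

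**Figure D4:**
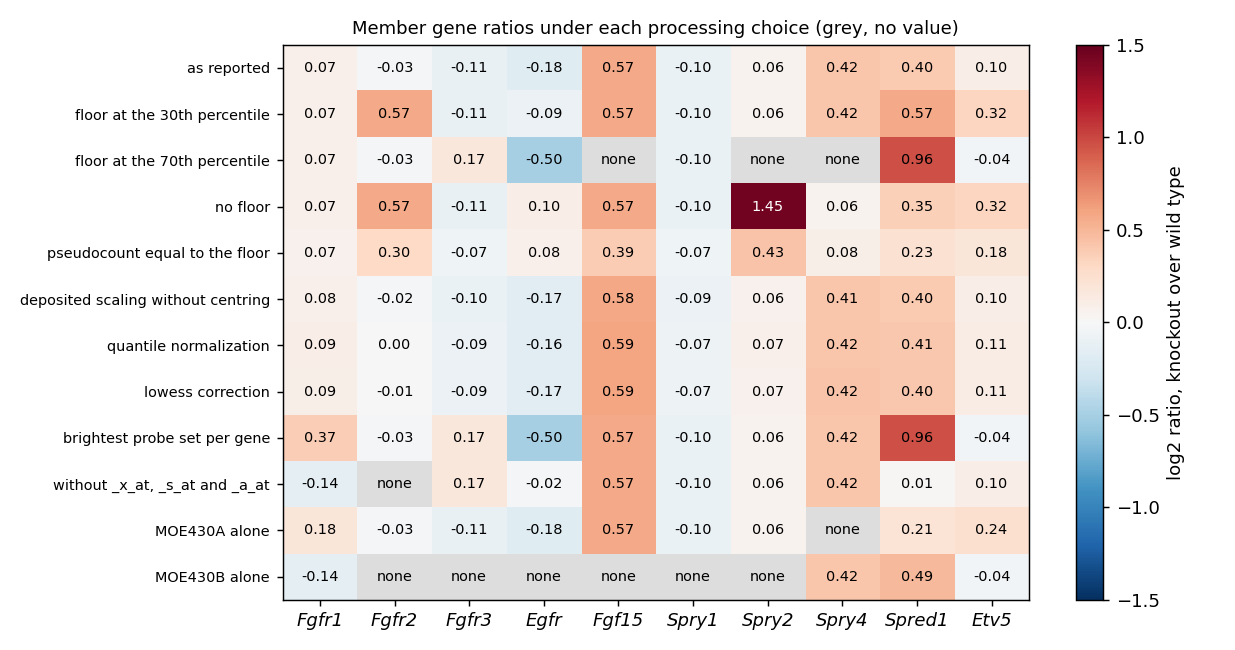
Gene value (log2 ratio of knockout over wild type, colour and number) of each member under each processing choice, with grey where no probe set of the gene qualified. Fgf15 stays between 0.39 and 0.59 wherever it has a value, and Spry1 between -0.10 and -0.07. Fgfr2, Spry2, Spry4 and Spred1 shift with the treatment of dim or _x_at probe sets. The other genes vary as well, Fgfr1 from -0.14 to 0.37 and Egfr from -0.50 to 0.10. Fgfr3 runs from -0.11 to 0.17 and Etv5 from -0.04 to 0.32. Fgf15 and Spry1 have 1 probe set each, so a choice among probe sets could only repeat or drop their values.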

How the data were processed

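Total RNA of neurospheres was prepared with RNeasy columns and labelled as biotinylated cRNA without amplification, per the labels' protocols. The deposited intensity values are MAS5 signals on a linear scale made by the authors, per the submitters' processing notes, which name no version; no detection calls were used. The instrument records give 1 hybridisation day per design, shared by both genotypes, per the file headers, so a within-design ratio is a within-day ratio.

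The 64 controls per design stayed out. Signals were taken to log2, the ratio of knockout over wild type was centred on its median (0.009 for MOE430A, -0.004 for MOE430B), and 10399 of 22626 and 9528 of 22511 probe sets were at or above the floor on both arrays. Where 1 array only reached it, its signal divided by the floor is the bound. Names came from the platform annotation; 20380 and 14661 probe sets had 1 symbol. The number of arrays limits the precision.

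The members and the pathway lists were chosen with earlier results of these data known. Named genes were all members, listed genes at least 1.5-fold different or with a bound of at least 2-fold, and a fixed set (Fgfr4, Erbb2, Erbb3, Erbb4, Fgf2, Egf, Dusp6, Etv4, Il17rd and Spred2); others are said in the text to be chosen after their values were seen. Alternatives were other floors (30th and 70th percentile, none), a pseudocount, other scalings (no centring, quantile, lowess at span 0.3), only the brightest probe set, no _x_at, _s_at or _a_at probe sets, and each design alone. The steps were tested on simulated data. Promoter sequences were those of RefSeq, assembly GRCm38.p6. Python 3.11.15, numpy 2.4.6, pandas 2.3.3, statsmodels 0.14.6 and matplotlib 3.10.9 were used.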

Additional observations from a re-analysis of the deposited data

How the results depend on the processing

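No paired analysis was possible because each genotype had 1 RNA sample and 1 array per design. Over the 11 alternatives the median over the member genes, 0.06 as reported, ran from -0.03, under a floor at the 70th percentile with 7 members left, to 0.21 with no floor. The count of members past 1.5-fold, 0 as reported, was 1 with the floor at the 70th percentile and with the brightest probe set (Spred1 at 0.96 in both), 1 with no floor (Spry2 at 1.45), and 1 with quantile normalization and with lowess (Fgf15 at 0.59 in both). Over all genes the share past 1.5-fold was 4.23% with the floor at the 70th percentile, 9.15% with the brightest probe set and 32.5% with no floor. It was 7.39% with quantile normalization and 7.36% with lowess. The count of members higher, 6 of 10 as reported, was 3 of 7 with the floor at the 70th percentile and 2 of 4 on MOE430B alone, where fewer members had a value. It was 8 of 10 with no floor or with a pseudocount. The share of all genes higher was 48.6% as reported, 47.8% with the floor at the 70th percentile and 50% on MOE430B alone. With no floor that share was 50%, and with a pseudocount 50.1%. Of the genes of all pathway lists, 3 passed 1.5-fold as reported, 9 with the floor at the 30th percentile, 26 with no floor, 1 with a pseudocount and 0 on MOE430A alone. The number of listed genes with a value changed as well, from 60 as reported to 108 with no floor. In the same order, the shares past 1.5-fold over all genes were 7.3%, 13.9%, 32.5%, 4.09% and 3.97%.

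Fgf15, Spry1, Spry2, Spry4 and Spred1 kept their sign in every alternative that gave them a value. Fgf15 and Spry1 had 1 probe set each, and Spry2 and Spry4 had 1 measured one. For these genes many alternatives could only repeat the value or give none, so a kept sign says little. Fgfr1, Fgfr2, Fgfr3, Egfr and Etv5 changed sign in 2, 4, 3, 2 and 3 of theirs. Spry4 nonetheless ran from 0.06 with no floor to 0.42 with lowess. Egfr ran from -0.50 with the brightest probe set to 0.10 with no floor, and Fgfr1 from -0.14 on MOE430B alone to 0.37 with the brightest probe set. The 1 array per genotype and design, and signals below the floor in 1 or both samples for 15 of the 34 member probe sets, limit what these data can show.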
